A study of Homo sapiens with 6 samples.

Results

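VPS29 and 9 further genes of the retromer and its sorting nexins were followed in HK-2 cells, an immortalized human proximal tubular cell line, after knockdown of INO80, the ATPase of a chromatin-remodeling complex. The members were chosen by symbol, as the genes of the deposited table named VPS29, VPS26A, VPS26B, VPS35, SNX1, SNX2, SNX3, SNX5, SNX6 or SNX27, each found once, so 10 of 57905 genes. All 10 passed the filter on low counts and were among the 15343 genes tested. VPS29 was selected on its own lower counts under INO80 siRNA in these same libraries, so its values are given as a description with no test, and the other 9 were chosen as its partners in the complex with earlier results of these data known. The 3 control siRNA libraries came from cells labelled WT and transfected with a non-targeting siRNA pool, and the 3 INO80 siRNA libraries from cells labelled knockdown that received an INO80-directed siRNA pool, all harvested 48 h later. Both groups are the same cell line under the same transfection reagent, and single siRNAs of the pool were not compared. The sources do not say whether the replicates were separate cultures, so p-values measure only the spread between these libraries.

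Retromer is a coat of endosomes that returns membrane proteins to the plasma membrane or the trans-Golgi network before they reach the lysosome. Its core is a trimer of VPS35, an elongated scaffold, VPS26, which exists as the paralogs VPS26A and VPS26B, and VPS29, the smallest subunit, which sits at the far end of VPS35 and also belongs to the related retriever complex. Sorting nexins carry a PX domain that recognises phosphoinositides of endosomal membranes. SNX1 or SNX2 pairs with SNX5 or SNX6 through BAR domains and shapes membrane tubules, SNX3 recruits the core to endosomes, and SNX27 links it to cargo with a PDZ-binding tail. In proximal tubular cells endosomal recycling keeps the receptors and transporters of the apical membrane in place.

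Reads counted on genes numbered between 16829273 and 20311588 per library under control siRNA and between 20678008 and 23784599 under INO80 siRNA. The members had between 147 and 6793 counts per library. INO80 itself was at 46.3, 49.3 and 54.0 CPM in control siRNA replicates 1, 2 and 3 and at 13.8, 12.1 and 14.2 CPM in the INO80 siRNA replicates, where CPM is the count divided by the TMM-scaled library size and expressed per 1e6 reads. The groups did not overlap, and the level under INO80 siRNA was 0.267 times that of the control. Of 15 proximal tubule markers, 7 passed the filter on low counts, among them PAX8, GGT1 and DPP4, while LRP2, SLC22A6, SLC22A8 and HNF4A had at most 3 counts in any library. The summed level of these markers was between 760.0 and 876.0 CPM under control siRNA and between 732.0 and 863.0 CPM under INO80 siRNA. None of the 4 distal nephron, 2 podocyte or 3 leukocyte markers passed the filter, nor did the 2 endothelial markers found in the table, and summed levels were at most 0.66 CPM in each of these lists. The leukocyte sum came from CD14 alone, with PTPRC and CD3E at 0, and was between 0.061 and 0.196 CPM in the controls and between 0.348 and 0.66 CPM after knockdown, and its part in the results was not tested. Of 5 epithelial markers, KRT8, KRT18, KRT19 and EPCAM passed the filter and CDH1 did not, with summed levels between 1180.0 and 1260.0 CPM in the controls and between 1080.0 and 1290.0 CPM after knockdown. EPCAM was at 115.0 ± 6.96 CPM in the controls and 92.8 ± 9.08 CPM after knockdown (SD over 3 libraries each) without overlap, did not pass in edgeR (adjusted p = 0.114) and passed with DESeq2 (0.0433) and with the replicate block, and its part in the results was not tested. Across genes, deviations from the group mean went together in libraries of the same number (correlations 0.581, 0.365 and 0.36 for replicates 1, 2 and 3). Those in replicate 1 of either group ran opposite to those in replicates 2 and 3 of the other (correlations between -0.397 and -0.361). Deviations cancel within a group, so these correlations are not independent of each other. The number was taken to pair libraries, and results are also given with the replicate number as a block where that changes a call. The calls that further depend on leaving out both libraries of replicate 1 are named beside them.

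VPS29 (ENSG00000111237, chromosome 12, 110928902 to 110939922 in the GRCh37 coordinates of the table, minus strand) was lower in every INO80 siRNA library than in any control library. It was at 79.4, 81.3 and 80.6 CPM in control siRNA replicates 1, 2 and 3. Under INO80 siRNA it was at 49.1, 51.9 and 50.7 CPM. The group means were 80.4 ± 0.958 and 50.6 ± 1.38 CPM (SD over 3 libraries each), a ratio of 0.629. Paired by number, the log2 difference was -0.69 in replicate 1, -0.65 in replicate 2 and -0.67 in replicate 3, so the difference was of like size in each. The fitted log2 fold change was -0.67 (SE, the standard error, 0.0562), and 326 of the 15343 genes tested, or 2.12%, had a log2 fold change at or below it. No processed copy of VPS29 is named in the table. These are bulk counts, in which fewer expressing cells and less RNA per cell cannot be told apart.

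VPS29 and RAD9B, a paralog of the checkpoint clamp subunit RAD9A, are transcribed away from each other from the same stretch of DNA. In RefSeq (GRCh38.p14) the start of VPS29 is at 110502111 and that of RAD9B at 110502331 on chromosome 12, 220 bases apart. The GRCh37 annotation used for counting differs. There RAD9B begins at 110939460, inside the VPS29 span, and no stretch lies between the spans. The stretch between the RefSeq starts is shown because any signal at the VPS29 promoter is also next to RAD9B. The sequences before the starts of VPS35 and VPS26B are shown for comparison with the other core subunits. Each is written 5′ to 3′ on the strand of its gene and ends at the base before the start. Capitals mark CCAAT boxes (CCAAT) and GC boxes (GGGCGG) on either strand, and no CCAAT box overlaps a GC box here.
VPS29, chr12:110502112-110502330, minus strand: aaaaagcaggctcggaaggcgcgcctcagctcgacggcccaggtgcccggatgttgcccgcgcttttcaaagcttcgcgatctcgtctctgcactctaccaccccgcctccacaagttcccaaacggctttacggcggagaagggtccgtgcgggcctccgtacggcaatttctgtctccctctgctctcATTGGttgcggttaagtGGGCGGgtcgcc
VPS35, chr16:46689179-46689428, minus strand: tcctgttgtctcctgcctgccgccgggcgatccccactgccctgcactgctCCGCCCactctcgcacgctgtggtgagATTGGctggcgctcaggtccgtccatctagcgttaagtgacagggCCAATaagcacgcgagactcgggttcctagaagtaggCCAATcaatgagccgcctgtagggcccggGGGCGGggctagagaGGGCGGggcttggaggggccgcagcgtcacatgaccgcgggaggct
VPS26B, chr11:134224421-134224670, plus strand: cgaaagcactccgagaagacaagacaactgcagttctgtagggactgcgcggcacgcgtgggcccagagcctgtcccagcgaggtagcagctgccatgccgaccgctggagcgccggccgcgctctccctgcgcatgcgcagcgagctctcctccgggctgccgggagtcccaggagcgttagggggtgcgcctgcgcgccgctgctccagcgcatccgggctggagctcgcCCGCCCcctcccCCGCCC

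The VPS29 stretch holds 1 CCAAT box and 1 GC box, which begin 29 and 12 bases before the start. VPS35 has 3 of each, and VPS26B has 2 GC boxes and no CCAAT box. Promoter sequences were matched for 9 of the 10 members. That of VPS29 was the 219 bases between the RefSeq starts, and the others were the 250 bases before the start. A CCAAT box was held by 2 of the 9, against 33.0% of 27305 promoters. A GC box was found in 7 of the 9, against 42.3% of all. The motifs were chosen with the sequences seen, so these shares are a description and no test of enrichment. The GC content of the 9 lay between 58.8% and 72.4%, above the median of 58.0% for all promoters. Its part in the number of GC boxes was not tested. An E-box (CACGTG) was in none of the 9 and in 6.49% of all promoters, and a cyclic AMP response element (TGACGTCA) was in SNX5 alone of the 9 and in 1.77% of all. These matches are letters only and no binding was measured.

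RAD9B was lowly expressed. It was at 3.48, 3.82 and 3.41 CPM in control siRNA replicates 1, 2 and 3 and at 2.64, 2.94 and 2.77 CPM in the INO80 siRNA replicates, with no overlap between the groups. The log2 fold change of RAD9B was -0.36 (SE 0.168, with an edgeR adjusted p of 0.341), or an adjusted p of 0.163 with the replicate block. RAD9B and VPS29 share 463 bases of their spans on opposite strands, and the counting is not stated to use strand, so reads there cannot be assigned with certainty. RAD9B also overlaps PPTC7, on the opposite strand, at its other end. On the other side of VPS29, the nearest tested gene was FAM216A, 712 bases from the VPS29 span, with a log2 fold change of 0.26 (SE 0.0968, with an edgeR adjusted p of 0.234). With the replicate block its adjusted p was 0.0221, and 0.0692 with the block without replicate 1. Beyond RAD9B, PPTC7, a mitochondrial protein phosphatase, fell from 57.0 ± 1.45 to 44.3 ± 1.92 CPM (SD over 3 libraries each), a log2 fold change of -0.36 (SE 0.0635, with an edgeR adjusted p of 0.0366). That call was lost when any single library was left out, with adjusted p between 0.0589 and 0.158, and with scaling to total counts alone, at 0.0533.

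**Figure D1:**
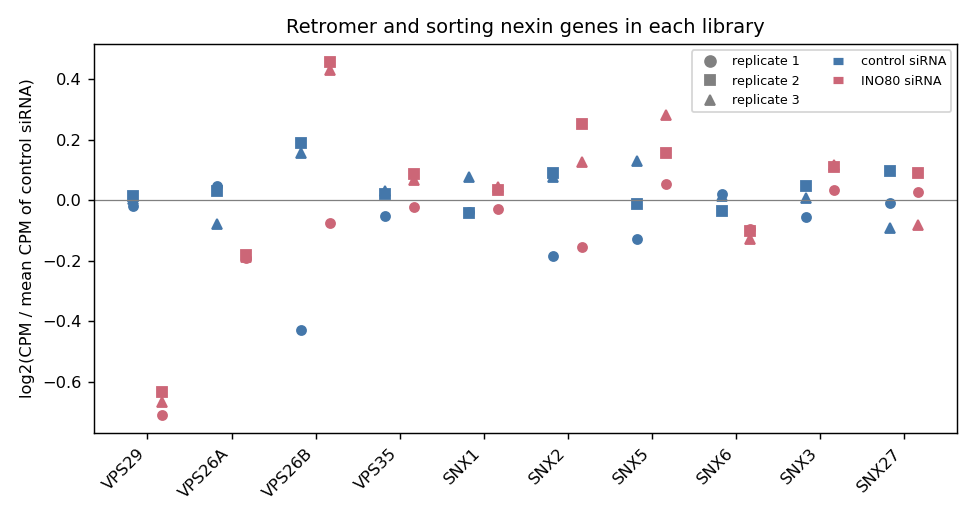
Level of each member in each library as the log2 ratio of its CPM to the mean CPM of the control siRNA libraries, with circles, squares and triangles for replicates 1, 2 and 3. VPS29 differs by -0.69, -0.65 and -0.67 between libraries of the same number, VPS26A and SNX6 lie slightly below the controls, and the other 7 members overlap between the groups.

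The other core subunits were compared next, to ask whether they followed VPS29. VPS26A (ENSG00000122958, chromosome 10, 70883268 to 70932617), the more abundant VPS26 paralog, was at 192.4, 190.2 and 176.4 CPM in control siRNA replicates 1, 2 and 3 and at 163.4, 164.5 and 163.6 CPM in the INO80 siRNA replicates. The INO80 siRNA libraries were all below the controls. The means were 186.3 ± 8.66 and 163.8 ± 0.565 CPM (SD over 3 libraries each), and the log2 fold change was -0.19 (95% interval -0.31 to -0.06). It did not pass the test with the treatment alone (adjusted p = 0.148, edgeR) and passed it with the replicate block (adjusted p = 0.000661, edgeR).

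VPS26B (ENSG00000151502, chromosome 11, 134094539 to 134117686), the minor paralog, was at 8.97, 13.8 and 13.5 CPM in control siRNA replicates 1, 2 and 3 and at 11.4, 16.6 and 16.3 CPM in the INO80 siRNA replicates. Replicate 1 was lowest in both groups and the groups overlapped. Its log2 fold change was 0.29 (95% interval -0.16 to 0.74, adjusted p = 0.521, edgeR), and with the block the adjusted p was 0.0182. The difference between libraries of the same number was positive each time, at 0.35, 0.27 and 0.27 on the log2 scale. The fitted log2 fold change was 0.12 without control siRNA replicate 1 and 0.44 without INO80 siRNA replicate 1. VPS26B shares 810 bases of its span with NCAPD3, a condensin II subunit on the opposite strand with up to 1722 counts per library, so its low count is uncertain.

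VPS35 (ENSG00000069329, chromosome 16, 46690054 to 46723430), the scaffold, was the member with the most counts. It was at 255.4, 268.5 and 270.1 CPM in control siRNA replicates 1, 2 and 3 and at 260.6, 281.3 and 277.3 CPM in the INO80 siRNA replicates. The groups overlapped, and the log2 fold change was 0.04 (95% interval -0.08 to 0.17, adjusted p = 0.756, edgeR). With the block the adjusted p was 0.374.

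The lowest bound of the intervals of the 9 other members was -0.31, that of VPS26A. VPS29 was picked for its low value, and 2.12% of all genes tested were at or below it. A position above VPS29 is therefore no result about the 9, and the difference from VPS29 was not tested. Of these 9 members, 0 passed an adjusted p under 0.05 with edgeR or DESeq2, and 1, VPS26A, had an unadjusted p under 0.05 (edgeR). In the same fit 1.75% of all genes tested passed the adjusted p and 16.4% the unadjusted p. With the replicate block 4 of the 9 passed, VPS26A and SNX6 lower and VPS26B and SNX5 higher. That fit called 24.8% of all genes, 13.4% lower and 11.4% higher. The same 4 passed with the block when both libraries of replicate 1 were left out. In CPM, 2 of the 9 members had no overlap between groups, both lower under INO80 siRNA, while 22.8% of all genes tested had none in either direction. The median log2 fold change of the 9 was 0.04, and that of all genes tested was 0.01.

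**Figure D2:**
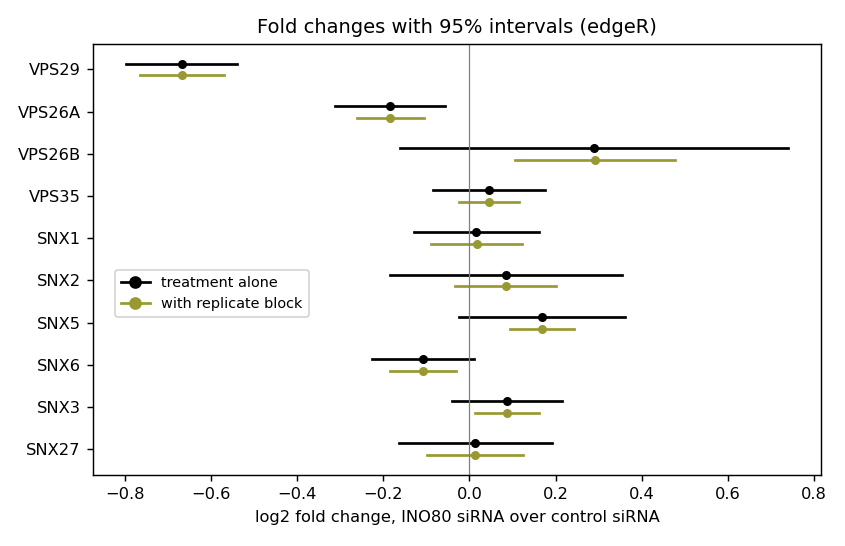
Log2 fold change of INO80 siRNA over control siRNA for each member, with its 95% interval, from edgeR with the treatment alone and with the replicate number as a block. VPS29, picked for its low value, is at -0.67 in both fits. The intervals of the other 9 members reach no lower than -0.31 in the fit with the treatment alone.

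Among the BAR-domain sorting nexins, SNX5 (ENSG00000089006) was at 161.6, 175.2 and 193.2 CPM in control siRNA replicates 1, 2 and 3 and at 183.4, 197.0 and 214.9 CPM in the INO80 siRNA replicates. The groups overlapped, since the lowest INO80 siRNA library lay under the highest control. Within each replicate number the INO80 siRNA library was higher, by 0.18, 0.17 and 0.15 on the log2 scale. The log2 fold change of SNX5 was 0.17 (95% interval -0.02 to 0.36, adjusted p = 0.376, edgeR), and the adjusted p was 0.00096 with the block. SNX5 shares 12001 bases of its span with OVOL2, a gene on its own strand with at most 23 counts in any library. SNX5 also shares 68 bases with MGME1, a mitochondrial exonuclease gene on the opposite strand. Reads in the shared stretches cannot be assigned with certainty.

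SNX6 (ENSG00000129515), the paralog of SNX5, was at 163.3, 156.8 and 162.4 CPM in control siRNA replicates 1, 2 and 3 and at 150.7, 149.8 and 147.2 CPM in the INO80 siRNA replicates. All INO80 siRNA libraries were below the controls. The log2 fold change of SNX6 was -0.11 (95% interval -0.23 to 0.01, adjusted p = 0.351, edgeR), with an adjusted p of 0.0368 with the block. SNX1 (ENSG00000028528) and SNX2 (ENSG00000205302), which pair with them, had log2 fold changes of 0.02 (95% interval -0.13 to 0.16) and 0.08 (95% interval -0.18 to 0.35). Single libraries turned the sign of both, SNX1 without control siRNA replicate 1 or 2 and SNX2 without INO80 siRNA replicate 2. Neither passed the test in either fit, with adjusted p of 0.934 and 0.782 with the treatment alone (edgeR) and 0.861 and 0.318 with the block. SNX2 was lowest in replicate 1 of both groups, at 33.7 and 34.5 CPM, while the other libraries held between 40.5 and 45.6 CPM.

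SNX3 (ENSG00000112335), which brings the core to the membrane without a BAR partner, was at 164.6, 176.7 and 172.1 CPM in control siRNA replicates 1, 2 and 3 and at 175.4, 184.6 and 185.4 CPM in the INO80 siRNA replicates. The groups overlapped, and the log2 fold change was 0.09 (95% interval -0.04 to 0.22, adjusted p = 0.493, edgeR, or 0.0825 with the block). SNX27 (ENSG00000143376), the PDZ-domain adaptor, was between 40.4 and 46.0 CPM under control siRNA and between 40.7 and 45.8 CPM under INO80 siRNA. Its log2 fold change was 0.01 (95% interval -0.16 to 0.19, adjusted p = 0.959, edgeR), and was -0.03 without INO80 siRNA replicate 2 and -0.04 without control siRNA replicate 3. The table names a processed copy of each of VPS26A, VPS26B, SNX2, SNX5 and SNX6, none of which held more than 4 counts in a library.

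Levels per length, as FPKM, placed the members over a wide range. The length is the exonic length given for each gene, 1842 bases for SNX3 and 9723 for VPS35. It need not be that of the transcript expressed, so the order between genes is uncertain. SNX3 was highest under control siRNA at 92.5 ± 4.88 FPKM, followed by VPS26A at 50.9 ± 1.94 and SNX6 at 39.0 ± 0.728 FPKM (SD over 3 libraries each). VPS35 at 27.1 ± 1.32, VPS29 at 24.9 ± 0.744 and SNX5 at 22.3 ± 2.35 FPKM (SD over 3 libraries each) came next. The libraries of VPS29 and SNX5 overlapped, and those of VPS35 and VPS29 were next to each other without overlap, the lowest for VPS35 being 25.59 FPKM and the highest for VPS29 being 25.47 FPKM. Lower levels were found for SNX2 at 8.98 ± 1.09, SNX27 at 5.74 ± 0.399, SNX1 at 5.35 ± 0.307 and VPS26B at 1.86 ± 0.439 FPKM (SD over 3 libraries each), and SNX27 and SNX1 overlapped. Under INO80 siRNA VPS29 was at 15.8 ± 0.811 FPKM (SD over 3 libraries) and stood below SNX5, at 25.2 ± 2.57 FPKM (SD over 3 libraries), with no overlap. The order of the other members was the same, and SNX5 then overlapped VPS35, at 28.2 ± 1.84 FPKM (SD over 3 libraries).

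**Figure D3:**
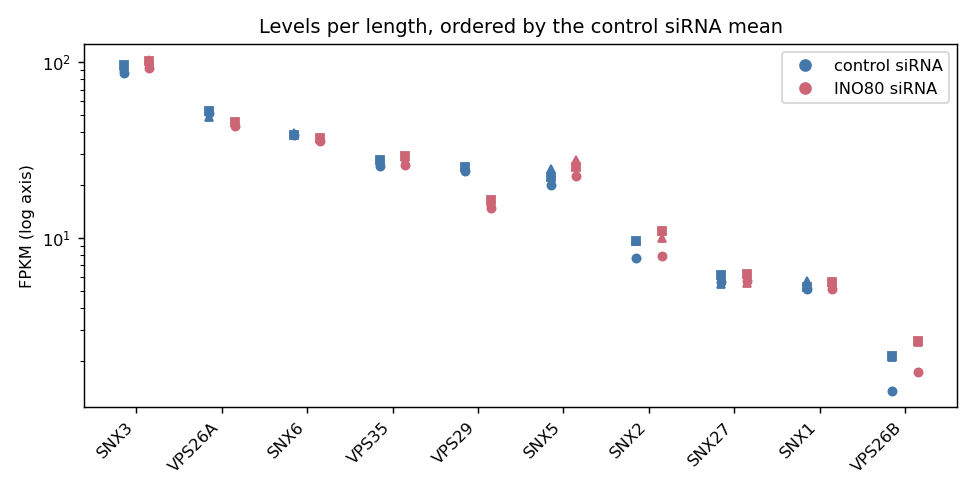
FPKM of each member in each library on a log axis, ordered by the mean under control siRNA, with circles, squares and triangles for replicates 1, 2 and 3. SNX3 is the highest and VPS26B the lowest in both groups, and VPS29 lies next to VPS35 under control siRNA and below SNX5 under INO80 siRNA.

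The core subunits were also set against each other within each library, where scaling between libraries plays no part. The size of each ratio depends on the exonic lengths used for FPKM, so it does not give numbers of subunits. The ratio of VPS29 to VPS35 in FPKM was 0.941, 0.917 and 0.903 in control siRNA replicates 1, 2 and 3. In the INO80 siRNA replicates it was 0.571, 0.559 and 0.554. The ratio of the summed VPS26 paralogs to VPS35 was 1.95 ± 0.124 in the controls and 1.69 ± 0.0486 after knockdown (SD over 3 libraries each). VPS29 was at 0.473 ± 0.0212 of the summed VPS26 paralogs under control siRNA and at 0.333 ± 0.00519 under INO80 siRNA (SD over 3 libraries each). The ratios that hold VPS29 carry the value it was picked for and were not tested.

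**Figure D4:**
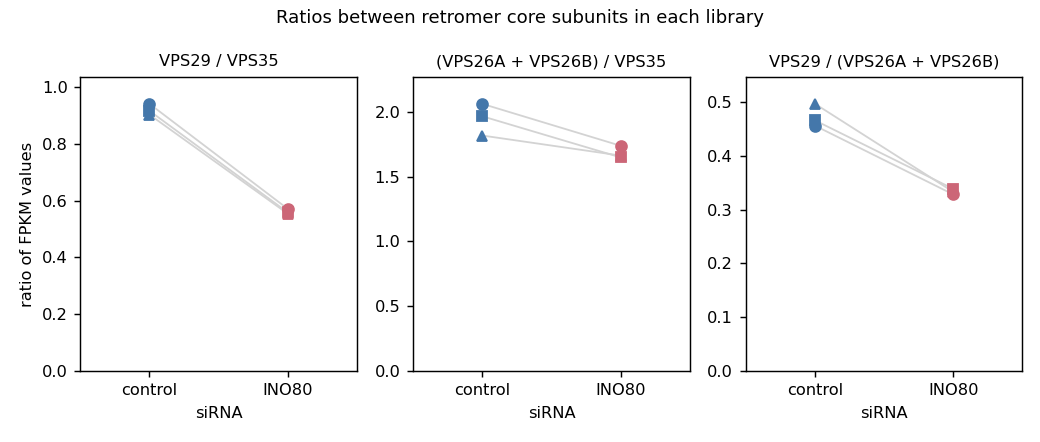
Ratios of FPKM between retromer core subunits in each library, with lines joining libraries of the same replicate number and circles, squares and triangles for replicates 1, 2 and 3. VPS29 to VPS35 lies between 0.903 and 0.941 under control siRNA and between 0.554 and 0.571 under INO80 siRNA.

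Paralogs fill the same place in their complex, so the share of each in its pair was tested by permuting libraries (exact and two-sided), for which 3 libraries against 3 cannot give a p below 0.1. The size of the shares, too, depends on the exonic lengths used for FPKM. SNX5 made up 34.0%, 36.8% and 38.2% of the summed FPKM of SNX5 and SNX6 in control siRNA replicates 1, 2 and 3. In the INO80 siRNA replicates its share was 38.8%, 40.6% and 43.2%. The groups did not overlap and the mean share was higher by 4.53 percentage points (exact permutation p = 0.1, 0.3 when adjusted over the 3 pairs). VPS26A made up 96.5% ± 0.843 of the VPS26 paralogs in the controls and 95.2% ± 0.887 after knockdown (SD over 3 libraries each, exact permutation p = 0.3, adjusted 0.45). SNX1 made up 37.4% ± 2.27 of SNX1 and SNX2 in the controls and 36.4% ± 2.75 after knockdown (SD over 3 libraries each, exact permutation p = 0.7, adjusted 0.7). The summed FPKM of these 4 BAR-domain sorting nexins was 75.6 ± 4.10 in the controls and 76.7 ± 4.72 after knockdown (SD over 3 libraries each).

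Beyond the members, 9 lists of endosomal sorting genes were read from the same fit. Of their 111 genes, 102 were tested, 3 fell (adjusted p under 0.05, edgeR) and 0 rose, beside 1.49% of all genes lower and 0.261% higher. An unadjusted p under 0.05 was found for 18 of the 102, beside 16.4% of all genes tested, and DESeq2 called 4, beside 4.69% of the genes it tested. The median log2 fold change over the 102 genes was -0.01. With the replicate block 19 were lower and 11 higher, beside 13.4% and 11.4% of all genes. The 3 that fell were VPS4B, COMMD8 and VPS52, and all 3 passed with the block too.

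VPS4B, an ATPase that disassembles ESCRT-III filaments, was at 65.9, 65.3 and 72.0 CPM in control siRNA replicates 1, 2 and 3 and at 41.7, 41.7 and 47.4 CPM in the INO80 siRNA replicates. Its log2 fold change was -0.64 (SE 0.0766, with an edgeR adjusted p of 0.0097), near the value of VPS29. The adjusted p of VPS4B was 0.0527, 0.0671 and 0.0555 without control siRNA replicate 2, control siRNA replicate 3 and INO80 siRNA replicate 2. It was the single gene called among 27 ESCRT genes tested, beside 1.75% of all genes, and the median log2 fold change of the 27 was 0.01. UBAP1, CHMP4B and MVB12B, also of the ESCRT machinery, had log2 fold changes of -0.21, -0.14 and -0.52 with adjusted p of 0.147, 0.251 and 0.173 (edgeR). Each passed with the block over all libraries, with adjusted p of 0.00295, 0.00553 and 0.0317 (edgeR). MVB12B had low counts, between 55 and 81 per library. With the block 7 of the 27 were lower and 1 was higher, beside 13.4% and 11.4% of all genes.

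The retriever complex, which recycles integrins and other cargo, uses VPS29 beside C16orf62 (VPS35L) and DSCR3 (VPS26C), and joins the COMMD and CCDC proteins in the Commander assembly. C16orf62 had 7, 13 and 8 counts in control siRNA replicates 1, 2 and 3 and 7, 3 and 10 in the INO80 siRNA replicates, below the filter, so no comparison was made. CCDC22 and CCDC93 of the same assembly were at 27.3 and 98.4 CPM in the controls. The reason for the low count of C16orf62 was not found, so it may not reflect the level of its RNA. DSCR3 was at 38.8 ± 1.86 CPM in the controls and 41.9 ± 1.85 CPM after knockdown (SD over 3 libraries each), with a log2 fold change of 0.11 (95% interval -0.05 to 0.27, adjusted p = 0.488, edgeR). COMMD8 was at 59.8, 53.6 and 54.8 CPM in control siRNA replicates 1, 2 and 3 and at 43.6, 39.3 and 40.1 CPM in the INO80 siRNA replicates. Its log2 fold change was -0.45 (SE 0.0735, with an edgeR adjusted p of 0.0284), and the adjusted p was 0.0651, 0.0979 and 0.119 without control siRNA replicate 1, 2 and 3 and 0.111 and 0.151 without INO80 siRNA replicate 2 and 3.
No other tested gene of this list passed with the treatment alone or with the block over all libraries, while DSCR3 (adjusted p = 0.0241) and COMMD9 (adjusted p = 0.036) passed in edgeR with the block without replicate 1. So 1 of the 14 tested passed in each fit over all libraries. The shares of all genes tested were 1.75% with the treatment alone and 24.8% with the block. In CPM, COMMD1, COMMD3 and COMMD9 were lower without overlap and CCDC22, a coiled-coil subunit, was higher without overlap, where 22.8% of all genes tested had no overlap in either direction. The log2 fold changes of COMMD1, COMMD3, COMMD9 and CCDC22 were -0.25, -0.22, -0.17 and 0.13 with adjusted p of 0.28, 0.456, 0.355 and 0.47 (edgeR). CCDC93 had a log2 fold change of 0.01, and those of FAM45A, COMMD2, COMMD4, COMMD5, COMMD6, COMMD7 and COMMD10 were between -0.10 and 0.21. The median over the 14 was -0.03.

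VPS52, a subunit shared by the GARP and EARP tethers, fell from 44.4 ± 4.05 to 33.0 ± 0.429 CPM (SD over 3 libraries each), a log2 fold change of -0.43 (SE 0.0804, with an edgeR adjusted p of 0.0446). The call of VPS52 was lost without control siRNA replicate 2 or 3 or any INO80 siRNA replicate, where the adjusted p was between 0.0845 and 0.171, and with scaling to total counts alone, at 0.0756. VPS51, VPS53 and VPS54 of the same tethers had log2 fold changes of 0.16, 0.13 and -0.08 and did not pass in either fit. Of the 5 tested genes of this list, 1 passed in each fit, beside 1.75% of all genes with the treatment alone and 24.8% with the block.

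Of the 9 tested genes that recruit or regulate retromer, 0 passed with the treatment alone in edgeR, 1 had an unadjusted p under 0.05 and 1 passed in DESeq2. Over all genes tested the shares were 1.75%, 16.4% and 4.69%. With the block 5 passed, 3 lower and 2 higher, beside 13.4% lower and 11.4% higher of all genes. TBC1D5, a RAB7 GTPase-activating protein that binds VPS29, was at 40.1, 36.3 and 37.9 CPM in control siRNA replicates 1, 2 and 3 and at 29.4, 31.5 and 30.3 CPM in the INO80 siRNA replicates, without overlap. Its log2 fold change was -0.32 (SE 0.0723, with an edgeR adjusted p of 0.0701), and it passed with the block at 0.00037 and with DESeq2 at 0.0313. ANKRD27, or VARP, which also binds VPS29, had a log2 fold change of 0.14 and did not pass in edgeR (adjusted p = 0.446) but passed with the block (0.0271), a call lost with the block without replicate 1 (0.0886). EHD1, which takes part in membrane recycling, and DNAJC13, an endosomal co-chaperone, had log2 fold changes of -0.17 and -0.16 with adjusted p of 0.382 and 0.43 (edgeR), and both passed with the block.

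In each of the 5 remaining lists 0 genes passed with the treatment alone in edgeR and 0 in DESeq2, beside 1.75% and 4.69% of all genes tested. An unadjusted p under 0.05, held by 16.4% of all genes tested, was found for 6 other sorting nexins and 2 genes of HOPS and CORVET. In the WASH, cargo and VPS34 lists 0 genes had one. Among 21 other sorting nexins, the lowest p-values were those of SNX19, SNX21, SNX12 and SNX17, with log2 fold changes of 0.23, -0.31, 0.17 and -0.20 and adjusted p of 0.109, 0.185, 0.206 and 0.23 (edgeR). SNX17 is the adaptor that feeds cargo to retriever. With the block 4 of the 21 were lower and 3 higher, beside 13.4% and 11.4% of all genes. SNX19, SNX21, SNX12 and SNX17 were among those that passed with it. In the WASH complex, which builds actin on retromer-coated endosomes, the 4 with the lowest p-values were KIAA0196, FAM21A, CCDC53 and FAM21C, with log2 fold changes of 0.15, 0.19, 0.15 and 0.16. With the block 2 of the 5 tested were higher, beside 11.4% of all genes. FAM21A and FAM21C are close to identical in sequence, so their counts are uncertain.
Of 8 retromer cargo genes tested, SLC2A1, the glucose transporter GLUT1, was at 448.9 ± 36.5 CPM in the controls and 517.4 ± 58.4 CPM after knockdown (SD over 3 libraries each), with a log2 fold change of 0.20 (adjusted p = 0.331, edgeR, or 8.03e-05 with the block). ATP7A, a copper transporter, and SORT1, a sorting receptor, had log2 fold changes of 0.21 and -0.13 and passed in neither fit. Of the 8 cargo genes, 1 was lower and 1 higher with the block, beside 13.4% and 11.4% of all genes. In the HOPS and CORVET tethers VPS16, VPS41, VPS8 and TGFBRAP1 had log2 fold changes of 0.19, -0.16, -0.16 and 0.10. With the block 1 of the 8 tested was lower and 1 higher, beside 13.4% and 11.4% of all genes. VPS8 passed too with the block without replicate 1 (adjusted p = 0.0371, edgeR). In the VPS34 complexes, which make the phosphoinositide that PX domains bind, UVRAG, PIK3R4, BECN1 and PIK3C3 had log2 fold changes of -0.34, 0.19, 0.08 and 0.11. Of the 5 genes, 1 was lower and 1 higher with the block, beside the same 13.4% and 11.4%. With the block without replicate 1, UVRAG did not pass (adjusted p = 0.0928, edgeR) and PIK3C3 did (0.00107).

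**Figure D5:**
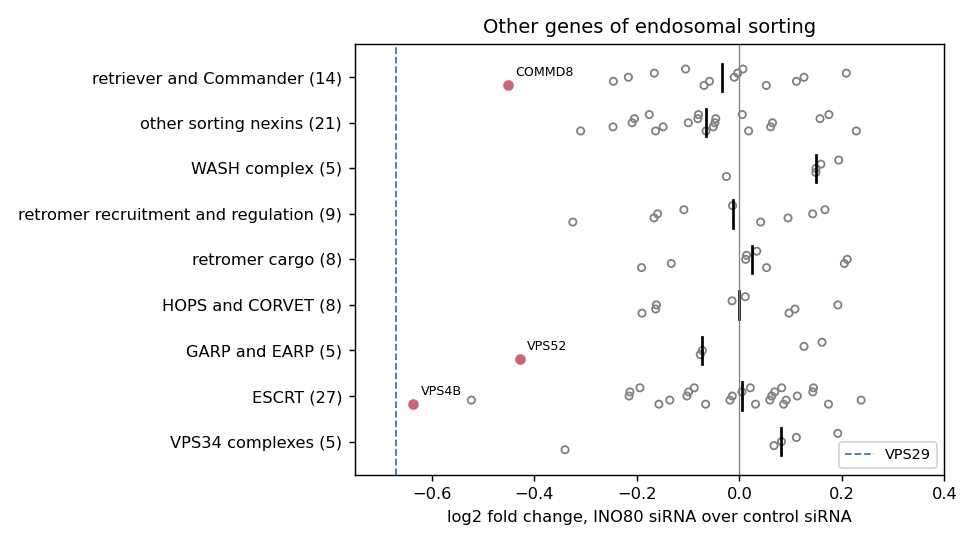
Log2 fold change of INO80 siRNA over control siRNA for each tested gene of the 9 lists, with the number tested in brackets, filled points for an adjusted p under 0.05 (edgeR, treatment alone), black bars for the median of each list and a dashed line at the value of VPS29. VPS4B, COMMD8 and VPS52 are the filled points, and the medians lie between -0.07 and 0.15.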

How the data were processed

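RNA-seq of 6 HK-2 libraries was analysed, 3 under control siRNA and 3 under INO80 siRNA, grouped by their GEO titles. The authors deposited 1 gene table that holds, per library, unnormalized read counts beside FPKM. Each deposited FPKM equals its count divided by exonic length and by the total count within 0.0051. The submitters' processing notes name HISAT2 2.0.1, HTSeq and hg19, while the paper's methods name ELAND and hg38. Gene coordinates of the table pass the end of chromosome 1 in hg38 (249231242 against 248956422) and are given as GRCh37. Use of strand in counting is not given in the sources used here.

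In R 4.3.3, edgeR 4.0.16 was run on the counts with filterByExpr, TMM scaling and a quasi-likelihood test of the treatment alone, with Benjamini-Hochberg adjustment over the 15343 genes tested. A gene passed with an adjusted p under 0.05. Intervals are 95% intervals of the fit. The alternatives were other scalings and filters, DESeq2 1.42.0, the replicate block and each library left out. Leaving out both libraries of replicate 1 was chosen after seeing the data. Libraries of the same number deviated together from their group means (correlation across genes 0.581, 0.365 and 0.36 for replicates 1, 2 and 3, against at most 0.152 for other pairs), so the number was taken to pair them. This pairing comes from the data, since the labels give only the numbers. Paralog shares were tested in Python 3.11.15. Promoters came from RefSeq (GRCh38.p14).

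Named genes were the 10 members, INO80, the retriever and Commander list, the 4 genes of each other list with the smallest p, genes whose spans overlap a member, and the nearest tested gene on each side of VPS29. Some genes under this rule are not reported here. Members and lists were chosen with earlier results of these data known, and the motifs with the sequences seen. Of 111 list genes, 110 were matched, some by an older symbol.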

Additional observations from a re-analysis of the deposited data

How the results depend on the processing

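The log2 fold change of VPS29 stayed between -0.69 and -0.65 over 14 alternatives. With the replicate block 4 of the 9 other members passed in place of 0, also when both libraries of replicate 1 were left out (4), and no other alternative called any of them. Genes of the 9 lists that passed numbered 30 with the block and 30 with the block without replicate 1, in place of 3, and between 0 and 2 with a single library left out, fits that also have fewer libraries. Over all genes, 268 passed in the fit reported, 708 without a filter, 613 with DESeq2, 528 without replicate 1, 3798 with the block and 3978 with the block without replicate 1, and between 18 and 146 with a single library left out. The causes of these shifts were not tested. The pairing of replicate numbers was also applied to the paralog shares, as an exact sign-flip test of within-number differences, where the differences were 4.53, -1.30 and -1.04 percentage points for SNX5, VPS26A and SNX1 and each p was 0.25, the smallest that 3 pairs allow. The SNX1 difference was between -2.50 and 0.23 with a single library left out, and its sign turned without control siRNA replicate 1 (0.13) and INO80 siRNA replicate 2 (0.23). With a single library left out, the log2 fold changes of SNX1, SNX2 and SNX27, none of them called, also turned sign. The members with the fewest counts, VPS26B and SNX2, had the widest intervals.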
